A study of Solanum lycopersicum with 12 samples.

Results

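The genes described here carry out or control the making and breaking of sucrose, starch and trehalose in tomato stems. They were taken from the 2 deposited tables as every gene whose protein name or InterPro entry mentions sucrose synthase, sucrose-phosphate, invertase or fructofuranosidase, trehalose, glucose-1-phosphate adenylyltransferase, starch synthase, amylase or glucan phosphorylase, leaving out the 27 entries that also read inhibitor. This gave 34 of the 6120 genes listed in either table: 4 sucrose synthases, 6 invertases, 2 sucrose-phosphate synthases, 6 trehalose genes, 3 ADP-glucose pyrophosphorylase genes, 4 starch synthases, 4 beta-amylases, 2 glucan phosphorylases, a starch branching enzyme, an isoamylase and 1 gene that matches by spelling alone. The last, Solyc07g041870.3, is annotated as a tubulin-tyrosine ligase or tubulin polyglutamylase, has no known part in sugar metabolism and is kept apart.

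Sucrose is the form in which most plants move carbon from leaves through the phloem into growing stems. Sinks open it in one of 2 ways: sucrose synthase yields UDP-glucose, which feeds cellulose and starch, whereas invertases hydrolyse it to glucose and fructose. Starch is built in plastids from ADP-glucose and is taken apart by beta-amylases, debranching enzymes and phosphorylases. Trehalose 6-phosphate, made by trehalose-phosphate synthases and removed by phosphatases, is known as a signal of sucrose status that restrains the SnRK1 kinase and takes part in the control of branching and flowering.

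RNA was sequenced from stems of Ailsa Craig plants, the genotype of every sample, grown in a greenhouse under long days. The treatment was a 3 g wooden clamp hung from the tip of stems 4.5 to 5 cm tall, for 48 h in full, and control plants carried none. Stems were taken 6 h after the clamp was put on and 10 days after it was removed, with 3 libraries in each of the 4 groups. The first time follows the design text, by which the young weighted stems still carried the clamp. The sample labels instead call it 6 hours post treatment. The sources used here do not say whether a library holds 1 plant or several, or which part of the stem was taken. The labels enter the time of sampling as the batch, so that age and batch cannot be told apart in any comparison of the older with the younger stems.

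The deposited values are FPKM (fragment counts normalised for gene length and library size), which may be compared between genes; read depth is unknown. Of the members, 29 stand in the table for 6 h, 8 in the table for 10 days and 3 in both, and each table holds all 12 libraries. Markers of stem tissue were present in every library, with laccases, cinnamyl alcohol dehydrogenases and caffeoyl-CoA O-methyltransferases of lignifying xylem summing to 327 to 1659 FPKM. Libraries of a group correlated at 0.94 or more. At 10 days control replicate 1 and weighted replicate 3 lay together at one end of the third principal component and control replicate 2 at the other. Log2 differences at 10 days that are printed below and move by over 1.5 times without the first pair are therefore also given without it. Members given at 10 days by their means alone are not covered by this rule. Weighted replicates 1 and 2 at 10 days lay almost together (51.13 and 51.35 on the first component, 4.65 and 4.53 on the second, 2.57 and 2.5 on the third). Fits without the first pair keep only these 2 weighted libraries at 10 days. Their adjusted p-values rest on a narrow spread in that group. In bulk stems, fewer cells of a kind and less RNA per cell cannot be told apart.

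Each table lists genes that the authors had already found to differ at its own time, and a member could enter it only by differing. At 6 h all 29 members therefore passed limma at a Benjamini-Hochberg adjusted p under 0.05, 10 higher and 19 lower under the weight, where 99.3% of all genes in that table passed, 48.3% higher and 51% lower. At 10 days all 8 members of that table passed, 6 higher and 2 lower, beside 99.7% of its genes, 51.8% higher and 47.9% lower. These counts are not a result about the members; the directions and sizes below are descriptions of genes chosen for differing. Each table was also fitted at the time it was not chosen on. The 3 members listed in both tables were selected at both times, so these fits are not free of selection. For the 10 day effect of members listed for 6 h, 0 of 27 tested passed where 0% of all genes did. For the 6 h effect of members listed for 10 days, 3 of 8 passed, all higher. Of all genes there, 27.4% passed, 13.8% higher and 13.5% lower. The 3 that passed were those listed in both tables, and no member listed for 10 days alone passed.

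**Figure D1:**
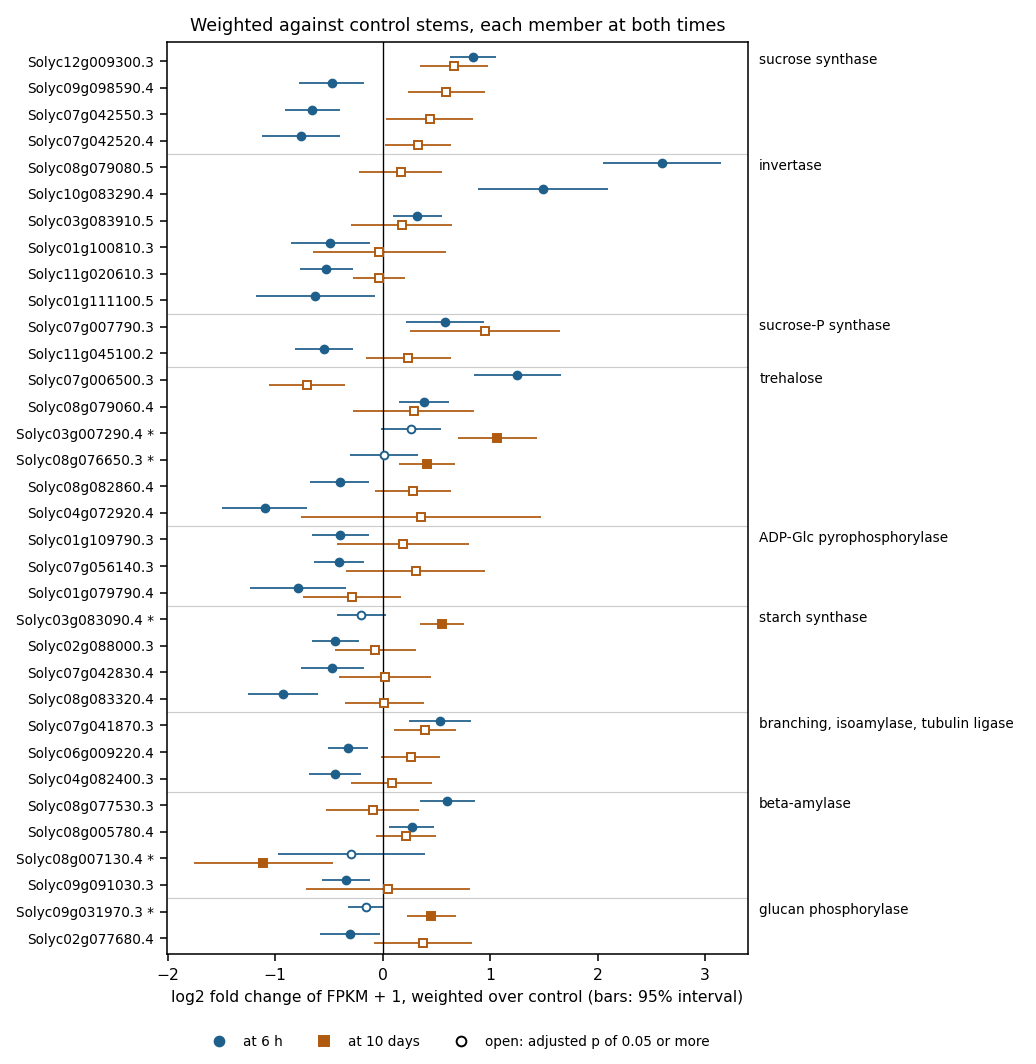
Log2 fold change of FPKM + 1 of weighted over control stems for each of the 34 members at 6 h (circles) and at 10 days (squares), with 95% intervals; filled symbols passed an adjusted p of 0.05 and open symbols did not. An asterisk marks the 5 members listed only for 10 days, fitted in that table; all others were fitted in the 6 h table, including the 3 listed in both, and 2 members under the filter at 10 days have no square. Sucrose synthases Solyc07g042520.4, Solyc07g042550.3 and Solyc09g098590.4 lie left of 0 at 6 h and right of it at 10 days.

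Of the 4 sucrose synthases, 3 were lower under the weight at 6 h and 1 was higher. Solyc07g042520.4 was the most abundant member of all, making up 82.3 ± 0.99% (SD, n = 3) of the summed FPKM of the 4 listed genes in control stems at 6 h. Its FPKM was 653, 812 and 676 in control and 447, 336 and 489.9 in weighted stems at 6 h, and 782, 599 and 598 in control and 822, 780.2 and 864 in weighted stems at 10 days. The weighted stems at 6 h were lowest and did not overlap their controls, while at 10 days the highest control library lay among the weighted ones. The log2 fold change (± SE) was -0.76 ± 0.16, adjusted p = 0.00426 at 6 h and 0.33 ± 0.13, unadjusted p = 0.0402, adjusted p = 0.28 at 10 days.

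Solyc07g042550.3, the next in abundance, gave 128, 142 and 128 in control and 80.2, 96.3 and 76.1 in weighted stems at 6 h, and 136, 178 and 133 in control and 227, 212 and 168 in weighted stems at 10 days. It repeats the order of the first gene, low in every weighted library at 6 h and with overlapping groups at 10 days. It fell by 0.65 ± 0.11 on the log2 scale at 6 h (adjusted p = 0.00217), and at 10 days its difference was 0.44 ± 0.17, unadjusted p = 0.0375, adjusted p = 0.274.

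The smallest of the 3 at 6 h was Solyc09g098590.4, with 5.74, 5.04 and 5.99 in control and 4.29, 3.08 and 3.91 in weighted stems at 6 h, and 54.4, 66.1 and 57.9 in control and 102, 94.6 and 74.7 in weighted stems at 10 days FPKM. The groups were apart at both times, the weighted libraries below the controls at 6 h and above them at 10 days. The fold changes were -0.47 ± 0.13, adjusted p = 0.0105 at 6 h and 0.59 ± 0.15, unadjusted p = 0.00628, adjusted p = 0.165 at 10 days. In control stems it also rose more with age than any other member, from 5.59 ± 0.49 to 59.5 ± 6.04 FPKM (SD, n = 3; log2 3.20 ± 0.13, adjusted p = 1.44e-05).

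The fourth sucrose synthase, Solyc12g009300.3, ran the other way at 6 h. Its libraries held 15.5, 15.1 and 13.7 in control and 26.7, 26.2 and 28.7 in weighted stems at 6 h, and 3.41, 2.82 and 3.74 in control and 5.91, 5.52 and 6.03 in weighted stems at 10 days FPKM. Weighted stems were above their controls at both times without overlap, and younger stems were far above older ones. It rose by 0.84 ± 0.09 at 6 h (adjusted p = 0.000517, and 0.0023 when adjusted over the 10 day table). The gene was listed for both times, so neither value is free of the selection. At 10 days the difference was 0.66 ± 0.12, called over the 10 day table (adjusted p = 0.00365) but not over the 6 h table (adjusted p = 0.131). With age it fell by 1.87 ± 0.13 (adjusted p = 6.87e-05), opposite to Solyc09g098590.4.

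The weight effect itself was tested for a difference between the times, in a fit of all 12 libraries. For the 3 genes that were low at 6 h the effect was higher at 10 days than at 6 h by 1.09 ± 0.22, adjusted p = 0.00403 (Solyc07g042520.4), 1.09 ± 0.21, adjusted p = 0.0034 (Solyc07g042550.3) and 1.06 ± 0.20, adjusted p = 0.00323 (Solyc09g098590.4). For Solyc12g009300.3 it was -0.18 ± 0.15, adjusted p = 0.312, with a 95% interval of -0.50 to 0.14. Without control replicate 1 and weighted replicate 3 of the 10 day stems the first 3 differences were 1.18, 1.16 and 1.14. Selection at 6 h enlarges the early part of each such difference. Among members listed for 6 h, 15 of 29 passed this test, 11 higher and 4 lower, near the 46.8% of all genes that passed (24.9% higher, 21.9% lower). Among those listed for 10 days, 4 of 8 passed, 3 higher and 1 lower, beside 49.1% of genes (27.4% higher, 21.7% lower). Summed over the 4 genes, sucrose synthase FPKM was 867 ± 93.3 in control and 539.7 ± 70.1 in weighted stems at 6 h, and 872 ± 93.8 and 1120.5 ± 33.2 at 10 days (SD, n = 3). Reads of so similar genes may have been divided between them, since the treatment of shared reads is not given in the sources used here.

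**Figure D2:**
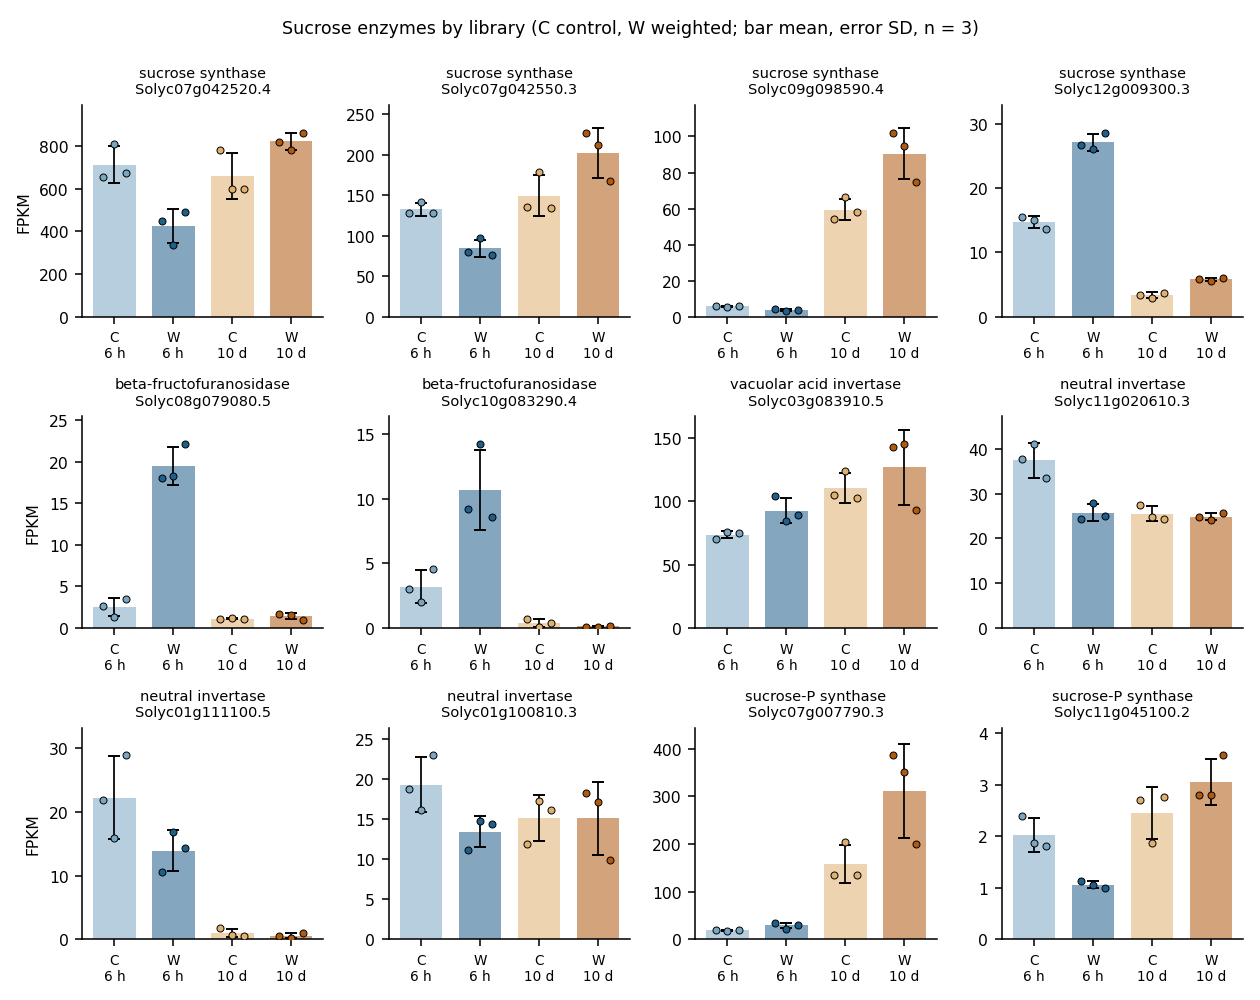
FPKM of the 12 sucrose-cleaving and sucrose-making members in each library (points), with the group mean (bar) and SD (error bar), n = 3; C is control, W weighted, and each panel has its own linear axis from 0. The 3 weighted libraries at 6 h stand above all others for beta-fructofuranosidases Solyc08g079080.5 and Solyc10g083290.4.

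The 6 invertases divided by enzyme family at 6 h. All 3 genes of glycoside hydrolase family 32, the acid invertases of cell wall and vacuole, were higher in weighted stems, and all 3 alkaline/neutral invertases of family 100, which act inside the cytosol and organelles, were lower. Solyc08g079080.5, annotated as a beta-fructofuranosidase, gave 2.62, 1.33 and 3.53 FPKM in control and 18, 18.3 and 22.1 in weighted stems at 6 h. No weighted library came near a control, and the 6 h fold change was the largest of any member. At 10 days its libraries held 1.05, 1.19 and 1.13 in control and 1.67, 1.56 and 0.99 in weighted stems, close to the filter of 1 FPKM and overlapping. It rose by 2.60 ± 0.23 at 6 h (adjusted p = 0.000337); at 10 days the difference was 0.17 ± 0.16, adjusted p = 0.643 (0.28, adjusted p = 0.317, without control replicate 1 and weighted replicate 3), and the 2 effects differed by -2.43 ± 0.30, adjusted p = 0.000555.

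Another beta-fructofuranosidase, Solyc10g083290.4, held 3.03, 2.0 and 4.52 in control and 9.21, 14.2 and 8.56 in weighted stems at 6 h, and 0.67, 0.04 and 0.37 in control and 0.09, 0.08 and 0.17 in weighted stems at 10 days FPKM. It was raised in every weighted library at 6 h and was under the 1 FPKM filter at 10 days, where it was not tested. The 6 h change was 1.49 ± 0.26, adjusted p = 0.00242, and the difference between the times, fitted over all 12 libraries, was -1.76 ± 0.35, adjusted p = 0.00399. In control stems it fell with age by 1.60 ± 0.27 (adjusted p = 0.00202).

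The vacuolar acid invertase Solyc03g083910.5 supplied most of the family 32 signal. Its FPKM was 70.4, 75.5 and 74.8 in control and 104, 84.7 and 89.4 in weighted stems at 6 h, and 105, 124 and 103 in control and 143, 145 and 92.9 in weighted stems at 10 days. Weighted stems at 6 h were above their controls, and at 10 days the lowest library of all older stems was a weighted one, replicate 3. The 6 h change was smaller than for the other two genes (0.32 ± 0.10, adjusted p = 0.0155), and leaving out control replicate 1 or weighted replicate 1 ended the call (adjusted p = 0.0517 and 0.0538). Its 10 day difference was 0.18 ± 0.20, adjusted p = 0.69, and 0.35 (adjusted p = 0.19) without control replicate 1 and weighted replicate 3.

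Among the neutral invertases, Solyc11g020610.3 fell from 37.4 ± 3.86 to 25.7 ± 1.91 FPKM at 6 h (SD, n = 3; -0.52 ± 0.11, adjusted p = 0.00419) and stood at 25.5 ± 1.63 and 24.9 ± 0.81 at 10 days. Solyc01g100810.3 went from 19.3 ± 3.45 to 13.4 ± 1.96 FPKM (-0.49 ± 0.16, adjusted p = 0.0191), a call that ended when control replicate 3 or weighted replicate 1 was dropped (adjusted p = 0.0533 and 0.0616). Solyc01g111100.5 went from 22.2 ± 6.48 to 13.9 ± 3.21 FPKM (-0.62 ± 0.24, adjusted p = 0.0332); it was the 1 member of 29 whose groups overlapped at 6 h, where 95.5% of all genes had groups that did not, and its call was lost without control replicate 1, control replicate 3, weighted replicate 1 or weighted replicate 3 (adjusted p of 0.0635 to 0.104). The same gene was nearly silent in older control stems, at 1.02 ± 0.67 FPKM, the steepest fall with age of any member (-3.53 ± 0.29, adjusted p = 0.000115). Together the 3 family 32 genes had 1.01 ± 0.0624 times the FPKM of the 3 family 100 genes in control stems at 6 h and 2.35 ± 0.45 times in weighted stems, whereas at 10 days the ratios were 2.69 ± 0.21 and 3.15 ± 0.51 (SD, n = 3). These genes were listed for differing at 6 h, so the shift of the ratio at 6 h follows from their directions and is not a separate result. Invertase genes that did not differ are missing from both sums.

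Sucrose-phosphate synthase catalyses the step toward sucrose, and its 2 listed genes moved in opposite directions at 6 h. Solyc07g007790.3 held 18.7, 17.9 and 20.2 in control and 34.7, 22.7 and 30.0 in weighted stems at 6 h, and 135, 205 and 135 in control and 386, 350.5 and 200.4 in weighted stems at 10 days FPKM. Weighted libraries were above controls at 6 h; at 10 days weighted replicate 3 fell just below control replicate 2 while the other 2 weighted libraries were far above every control. It rose by 0.58 ± 0.15 at 6 h (adjusted p = 0.00993), and its 10 day difference of 0.95 ± 0.29, unadjusted p = 0.015, adjusted p = 0.201, the largest among the tested members of the 6 h table, was not called. Without control replicate 1 and weighted replicate 3 that difference was 1.14 (adjusted p = 0.0913). The control groups of the 2 times differed by 2.97 ± 0.18 (adjusted p = 4.62e-05), more than weighted and control stems did at either time. Age and batch cannot be told apart in that comparison. Solyc11g045100.2, weakly expressed, fell from 2.03 ± 0.32 to 1.06 ± 0.0709 FPKM at 6 h (SD, n = 3; -0.55 ± 0.11, adjusted p = 0.00446), and stood at 2.45 ± 0.5 and 3.06 ± 0.44 at 10 days.

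The 6 trehalose genes comprised 2 synthases, 3 phosphatases and a trehalase. Like the other listed synthase, Solyc07g006500.3, annotated as probable trehalose-phosphate synthase 11, also carries a trehalose-phosphatase domain. Its FPKM was 6.22, 4.35 and 5.23 in control and 11.7, 12.9 and 17.5 in weighted stems at 6 h, and 14.6, 19.9 and 17.9 in control and 11.1, 10.6 and 9.23 in weighted stems at 10 days. Weighted stems were above controls at 6 h and below them at 10 days, without overlap at either time. It rose by 1.25 ± 0.17 at 6 h (adjusted p = 0.00116, and 0.00659 when adjusted over the 10 day table). The gene was listed for both times, so neither value is free of the selection. At 10 days it differed by -0.70 ± 0.13, called over the 10 day table (adjusted p = 0.0038) and not over the 6 h table (adjusted p = 0.138). The effects at the 2 times differed by -1.96 ± 0.24, adjusted p = 0.000547 over the 6 h table, and the gene rose with age in controls by 1.56 ± 0.17, adjusted p = 0.000321. Of the 3 members listed in both tables, it was the one whose weight effect was opposite in sign at the 2 times.

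The other synthase, Solyc08g076650.3, listed for 10 days alone, had 46.6, 52.3 and 49.6 in control and 60.1, 43.6 and 47.2 in weighted stems at 6 h, and 76.1, 57.4 and 64.5 in control and 88.2, 82.5 and 92.1 in weighted stems at 10 days FPKM. Controls and weighted stems mixed at 6 h and were apart at 10 days, weighted higher. The 10 day difference was 0.41 ± 0.11, adjusted p = 0.00868, and that at 6 h 0.01 ± 0.13, adjusted p = 0.959. Scaled by median ratios, the 10 day difference was 0.20 (adjusted p = 0.08). Its rise with age (0.40 ± 0.12, adjusted p = 0.0215) turned to -0.14 (adjusted p = 0.438) with library totals made equal. That call was also lost by median ratios (adjusted p = 0.0521), by quantile normalization (adjusted p = 0.0963) and without control replicate 1 of the 6 h stems (adjusted p = 0.0714) or control replicate 1 or 3 of the 10 day stems (adjusted p = 0.0581 and 0.0584).

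A pair of trehalose 6-phosphate phosphatases showed their largest differences at different times. Solyc04g072920.4 gave 138, 110.2 and 129.7 in control and 45.6, 71.4 and 60.0 in weighted stems at 6 h, and 9.38, 29.9 and 15.4 in control and 27.9, 27.3 and 12.5 in weighted stems at 10 days FPKM. It was lower in weighted stems at 6 h and low in all older stems, where the groups overlapped. It fell by 1.10 ± 0.17 at 6 h (adjusted p = 0.00168) and by 2.86 ± 0.37 with age in controls (adjusted p = 0.000689), and its 10 day difference was 0.36 ± 0.47, adjusted p = 0.741. The difference between the 2 weight effects, 1.45 ± 0.54, adjusted p = 0.0466, was lost in 14 of 21 alternative fits (adjusted p up to 0.102), among them those leaving out any 1 library other than control replicate 2 or weighted replicate 3 of the 10 day stems.

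Solyc03g007290.4, a phosphatase gene listed for 10 days, held 1.29, 1.29 and 1.31 in control and 1.39, 1.97 and 1.96 in weighted stems at 6 h, and 7.19, 5.06 and 5.03 in control and 14.1, 14.1 and 11 in weighted stems at 10 days FPKM. It was near the filter at 6 h, intermediate in older controls and highest in every older weighted library. The 10 day difference was 1.06 ± 0.16, adjusted p = 0.00253 and exceeded the 6 h difference of 0.27 ± 0.12, adjusted p = 0.133 by 0.80 ± 0.20, adjusted p = 0.00837. Its rise with age in controls was 1.54 ± 0.14, adjusted p = 5.50e-05. The remaining phosphatase, Solyc08g079060.4, rose from 10.1 ± 0.47 to 13.5 ± 1.17 FPKM at 6 h (0.39 ± 0.10, adjusted p = 0.00875), with 9.73 ± 3.14 and 11.8 ± 1.28 at 10 days. The trehalase Solyc08g082860.4, which splits trehalose into glucose, fell from 14.7 ± 0.96 to 10.9 ± 1.54 FPKM at 6 h (-0.40 ± 0.12, adjusted p = 0.0138); at 10 days it was 16 ± 3.02 in control and 19.6 ± 0.47 in weighted stems, and its 2 effects differed by 0.68 ± 0.19, adjusted p = 0.0163.

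**Figure D3:**
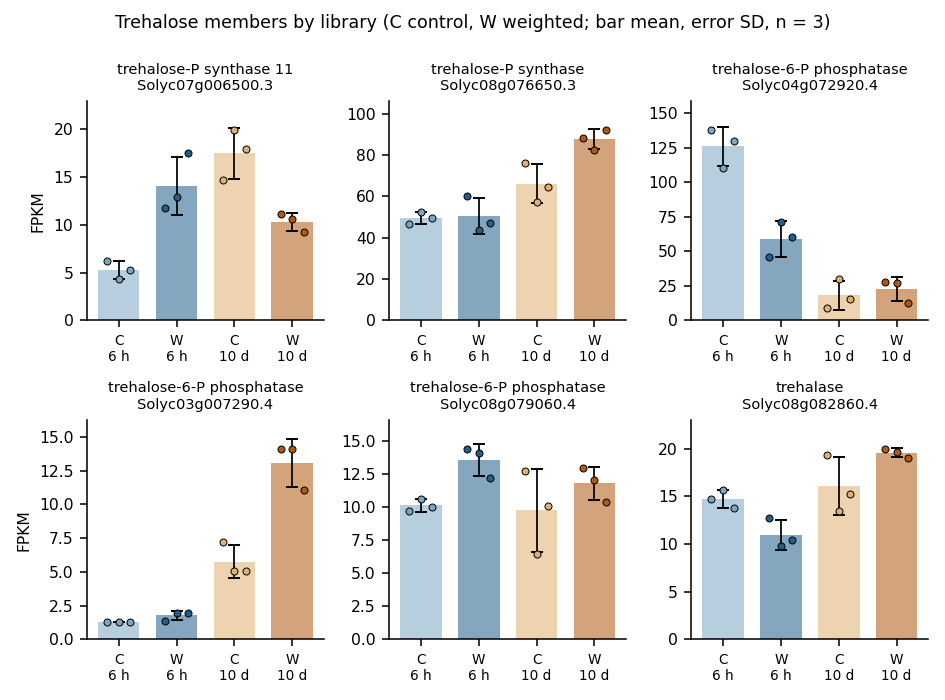
FPKM of the 6 trehalose members in each library (points), with the group mean (bar) and SD (error bar), n = 3; C is control, W weighted, and each panel has its own linear axis from 0. Trehalose-phosphate synthase 11 is higher under the weight at 6 h and lower at 10 days, and phosphatase Solyc03g007290.4 is highest in the 3 weighted libraries at 10 days.

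The genes of starch synthesis listed for 6 h were lower in weighted stems: 3 of 3 ADP-glucose pyrophosphorylase genes, 3 of 3 starch synthases and the branching enzyme. Of all genes listed and tested for 6 h, 99.3% passed and 51% passed as lower. Starch genes that did not differ at 6 h could not be listed, so the count does not describe the whole route. ADP-glucose pyrophosphorylase makes the glucosyl donor of starch and is the regulated step of the route. Its most abundant gene at 6 h, Solyc07g056140.3, gave 239, 278 and 253 in control and 210.2, 176 and 195 in weighted stems at 6 h, and 202, 94.1 and 135 in control and 163, 156 and 192 in weighted stems at 10 days FPKM. Weighted stems were below controls at 6 h, and the 10 day controls spread over a range that held every weighted library. It fell by 0.41 ± 0.10 at 6 h (adjusted p = 0.00765), with 0.31 ± 0.27, adjusted p = 0.622 at 10 days. Without control replicate 1 and weighted replicate 3 the 10 day difference was 0.50 (adjusted p = 0.204).

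The large subunit gene Solyc01g109790.3 held 116, 132 and 119.7 in control and 108, 89.8 and 83.4 in weighted stems at 6 h, and 203, 101 and 128 in control and 146, 147 and 183 in weighted stems at 10 days FPKM. Again the 6 h groups were apart and control replicate 1 at 10 days was the highest library. The 6 h change was -0.39 ± 0.11, adjusted p = 0.0131 and the 10 day difference 0.19 ± 0.26, adjusted p = 0.75, or 0.36 (adjusted p = 0.216) without that library and weighted replicate 3. The third gene, Solyc01g079790.4, fell from 19.1 ± 2.4 to 10.8 ± 3.01 FPKM at 6 h (SD, n = 3; -0.79 ± 0.19, adjusted p = 0.00716) and stood at 9.28 ± 0.77 and 7.58 ± 2.1 at 10 days.

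Among the starch synthases, which extend the glucan chain, Solyc08g083320.4 was the most abundant. It had 73, 66 and 74.4 in control and 45.4, 31.8 and 35 in weighted stems at 6 h, and 159, 141 and 147 in control and 137, 134 and 188 in weighted stems at 10 days FPKM. Weighted libraries at 6 h were below all controls, and older stems were above all younger ones with overlapping groups. It fell by 0.92 ± 0.14 at 6 h (adjusted p = 0.00149), differed by 0.02 ± 0.15, adjusted p = 0.965 at 10 days (-0.09, adjusted p = 0.574, without control replicate 1 and weighted replicate 3), and the 2 effects differed by 0.94 ± 0.22, adjusted p = 0.00732. With age it rose by 1.06 ± 0.11 (adjusted p = 0.000234). Solyc02g088000.3 and Solyc07g042830.4 fell at 6 h by 0.44 and 0.47, from 16.9 ± 0.87 to 12.2 ± 0.8 FPKM and from 5.14 ± 0.27 to 3.47 ± 0.64 FPKM.

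Soluble starch synthase 1, Solyc03g083090.4, listed for 10 days, gave 19.5, 21.6 and 20.2 in control and 18.6, 15.7 and 18.8 in weighted stems at 6 h, and 15.7, 15.7 and 16.6 in control and 25.1, 22.3 and 24.4 in weighted stems at 10 days FPKM. The 3 weighted libraries at 10 days were the highest of the 12, and those at 6 h were below their controls. The 10 day difference was 0.55 ± 0.09, adjusted p = 0.00282, that at 6 h -0.20 ± 0.10, adjusted p = 0.159, and the difference between them 0.75 ± 0.13, adjusted p = 0.00113. The branching enzyme Solyc04g082400.3, which sets the branch points of amylopectin, held 27.1, 28.2 and 24.3 in control and 21, 17.8 and 19 in weighted stems at 6 h, and 57.8, 43.9 and 56.3 in control and 53.7, 49.4 and 64.7 in weighted stems at 10 days FPKM. It was lower in weighted stems at 6 h and higher in all older stems, where the groups overlapped. It fell by 0.44 ± 0.10 at 6 h (adjusted p = 0.0061) and rose with age by 0.95 ± 0.14 (adjusted p = 0.00125).

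**Figure D4:**
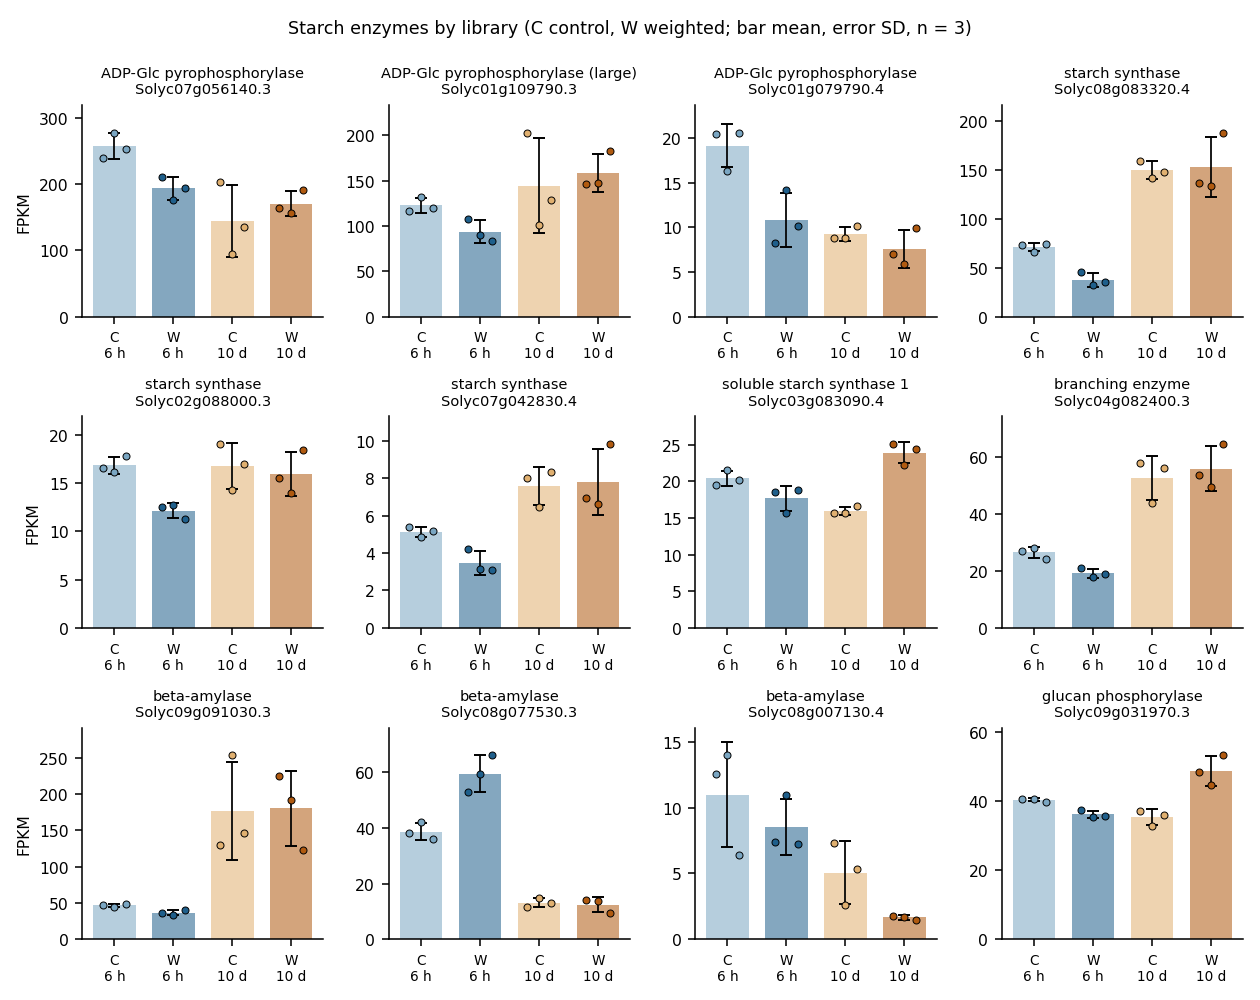
FPKM of 12 members of starch synthesis and breakdown in each library (points), with the group mean (bar) and SD (error bar), n = 3; C is control, W weighted, and each panel has its own linear axis from 0. Weighted stems at 6 h are below their controls for the 3 ADP-glucose pyrophosphorylase genes and 3 of the starch synthases, and beta-amylase Solyc08g077530.3 is above its control.

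The genes of starch breakdown were mixed. Beta-amylases release maltose from the chain ends. Solyc08g077530.3 gave 38.1, 42 and 36.1 in control and 52.8, 59.5 and 66.2 in weighted stems at 6 h, and 11.7, 14.9 and 13.1 in control and 14.1, 13.8 and 9.5 in weighted stems at 10 days FPKM. It was higher in each weighted library at 6 h and low in all older stems. It rose by 0.60 ± 0.11 at 6 h (adjusted p = 0.00288) and fell with age by 1.49 ± 0.13 (adjusted p = 0.000136).

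Solyc09g091030.3 had 46.9, 44.8 and 48.2 in control and 35.8, 33.7 and 40.6 in weighted stems at 6 h, and 130.0, 253 and 146 in control and 225, 192 and 123 in weighted stems at 10 days FPKM. It was lower under the weight at 6 h and above every younger library in older stems, where libraries of one group spread widely and the groups overlapped. It fell by 0.34 ± 0.10 at 6 h (adjusted p = 0.0118) and rose with age by 1.84 ± 0.25 (adjusted p = 0.000774). Solyc08g005780.4 also carries a BES1/BZR1 domain, the DNA-binding type of brassinosteroid factors. It went from 12.2 ± 0.44 to 14.9 ± 0.85 FPKM at 6 h (0.27 ± 0.09, adjusted p = 0.0198), a call lost without control replicate 2 (adjusted p = 0.0546) or weighted replicate 1 (adjusted p = 0.0736) and with library totals made equal (adjusted p = 0.0779).

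The fourth beta-amylase, Solyc08g007130.4, listed for 10 days, held 12.6, 14 and 6.42 in control and 7.39, 11 and 7.22 in weighted stems at 6 h, and 7.32, 2.57 and 5.32 in control and 1.79, 1.73 and 1.46 in weighted stems at 10 days FPKM. All 3 weighted libraries at 10 days were below every other library. The difference was -1.11 ± 0.28, adjusted p = 0.00663 at 10 days and -0.29 ± 0.29, adjusted p = 0.468 at 6 h, and the test of the change between the times gave -0.82 ± 0.44, adjusted p = 0.139 (-0.49, adjusted p = 0.388, without control replicate 1 and weighted replicate 3 of the 10 day stems). Glucan phosphorylase, which cuts starch with phosphate, had 2 genes. Solyc09g031970.3 gave 40.7, 40.7 and 39.9 in control and 37.4, 35.6 and 35.8 in weighted stems at 6 h, and 37.2, 32.7 and 36.1 in control and 48.4, 44.6 and 53.3 in weighted stems at 10 days FPKM. The weighted stems were the lower ones at 6 h and the higher ones at 10 days, without overlap. It rose at 10 days by 0.45 ± 0.10 (adjusted p = 0.00448), against -0.15 ± 0.07, adjusted p = 0.141 at 6 h, and the effects differed by 0.61 ± 0.12, adjusted p = 0.00216.

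Solyc02g077680.4, the other phosphorylase, went from 7.07 ± 0.61 to 5.54 ± 0.73 FPKM at 6 h (-0.31 ± 0.12, adjusted p = 0.0357). That call was lost without control replicate 1, control replicate 3, weighted replicate 2 or weighted replicate 3 (adjusted p of 0.0558 to 0.121) and under median ratios or quantile normalization. Isoamylase 3, Solyc06g009220.4, a debranching enzyme, fell from 27.5 ± 0.51 to 21.7 ± 0.72 FPKM (-0.33 ± 0.08, adjusted p = 0.00745), with 20.4 ± 1.71 and 24.7 ± 1.87 at 10 days. The tubulin ligase Solyc07g041870.3 held 17.1, 18.5 and 20.9 in control and 28.1, 31.1 and 24.1 in weighted stems at 6 h, and 15.5, 12.3 and 14.2 in control and 18.6, 17.7 and 19.5 in weighted stems at 10 days FPKM. It was higher in weighted stems at both times without overlap, by 0.53 ± 0.12, adjusted p = 0.00627 at 6 h and 0.39 ± 0.11, adjusted p = 0.00888 over the 10 day table at 10 days. Over the 6 h table the 10 day difference was not called (adjusted p = 0.204), and scaled by median ratios it was 0.19 (adjusted p = 0.068 over the 10 day table). Its 6 h call over the 10 day table (adjusted p = 0.0219) was lost without control replicate 1 or 2 or weighted replicate 1 or 2 of the 6 h stems (adjusted p of 0.0537 to 0.0794).

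Over the 27 members of the 6 h table that could be tested at 10 days, 7 had an unadjusted p under 0.05, 6 of them higher in weighted stems, beside 16.5% of all genes. They were the 4 sucrose synthases, Solyc07g007790.3, trehalose-phosphate synthase 11 and the tubulin ligase. Of these, sucrose synthase Solyc12g009300.3, trehalose-phosphate synthase 11 and the tubulin ligase were also listed for 10 days. Their differences at that time were therefore selected, and the count is not a result about the members. The groups did not overlap for 7 of the 27, the same selected genes among them, beside 23.4% of all genes. The median 10 day difference of the 27 was 0.22, beside 0.04 over all genes of that table, and at 6 h the medians were -0.40 for the 29 members and -0.25 for all genes.

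Markers of other tissues moved at the same time. Sums here run over each whole list. Of 48 light-harvesting and photosystem genes 47 were lower in weighted stems at 6 h, their summed FPKM being 11965 to 16219 in controls and 6628 to 7998 under the weight, and at 10 days 13 of 13 listed genes were lower, with sums of 12017 to 13340.4 in control and 10098 to 11923 in weighted stems. Lignifying xylem markers were lower for 11 of 12 genes tested at 6 h, with sums of 570.1 to 853 in control and 327 to 430 in weighted stems, but higher for both genes listed at 10 days, with sums of 1202 to 1463 in control and 1533 to 1659 in weighted stems. Phloem markers split 3 higher and 3 lower at 6 h, with overlapping sums. At 10 days 5 of 6 phloem genes were higher and 1 lower. Sums were 117 to 135 FPKM in control and 155 to 165 in weighted stems, apart in the same direction as the sucrose synthases. All 5 higher genes were annotated as callose synthases. The lower gene, Solyc12g044930.3, was the only one of the 6 matched by the words phloem protein (10.1 to 14.5 FPKM in control, 7.27 to 9.5 in weighted stems). The list therefore shows no common direction of phloem markers. Of 16 genes with pollen in their annotation, a word the expansin domain also carries, 12 were higher and 3 lower at 6 h, with sums of 788 to 870 in control and 1271 to 1400.3 in weighted stems. No gene of the green, xylem, phloem or fruit lists was at 0 in any library. The vicilin gene, a seed storage protein, was at 0 to 0.15 FPKM at 6 h and 0.84 to 19.3 at 10 days, and the fruit marker phytoene synthase 1 was lower in older weighted stems (18.4 to 23.7 FPKM) than in their controls (30.6 to 39.8). The part of these tissue markers in the changes of the sucrose, starch and trehalose genes was not tested.

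Neighbouring genes of the pathway, such as sugar transporters, hexose-phosphate enzymes and the starch dikinases, were 6 higher and 15 lower among 21 tested at 6 h, and 7 higher and 7 lower among 14 at 10 days. Of all genes tested, 48.3% passed as higher and 51% as lower at 6 h, and 51.8% and 47.9% at 10 days. All were listed for differing at the time in question, so these counts are descriptions. At 6 h the sucrose transporter Solyc05g007190.4 was higher (log2 0.51) and the alpha-glucan water dikinase Solyc05g005020.4, which phosphorylates starch for breakdown, was lower (log2 -0.47). Of the SWEET sugar efflux carriers, 4 were lower at 6 h (log2 -0.88 to -0.69) and Solyc03g097560.3 was higher (log2 1.55). The latter was weakly expressed, at 0.04 to 0.29 FPKM in control and 2.06 to 3.27 in weighted stems. At 10 days 5 were lower (log2 -1.68 to -1.09) and Solyc03g097570.3 was higher (log2 0.77), as was Solyc02g085810.3 (log2 0.50), an uncharacterized protein whose annotation mentions SWEET.

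In control stems the members differed between the ages in both directions. Of the members listed for 6 h, 8 of 29 were higher and 13 lower in the older stems, beside 65.9% of genes called (27.2% higher, 38.7% lower). Of those listed for 10 days, 3 of 8 were higher and 4 lower, beside 73.1% (41.7% higher, 31.4% lower). With library totals made equal, by median ratios or by quantile normalization the latter split was 2 higher and 5 lower. The age comparison shares its control libraries with both weight comparisons, so its values are set beside theirs and not correlated with them. Within families the genes parted: sucrose synthase Solyc09g098590.4 rose where Solyc12g009300.3 fell, and beta-amylase Solyc09g091030.3 rose where Solyc08g077530.3 fell. The vacuolar invertase Solyc03g083910.5 rose with age (0.57 ± 0.11, adjusted p = 0.00426), whereas the abundant sucrose synthases Solyc07g042520.4 and Solyc07g042550.3 had 95% intervals of -0.47 to 0.24 and -0.18 to 0.50 around differences that were not called.

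**Figure D5:**
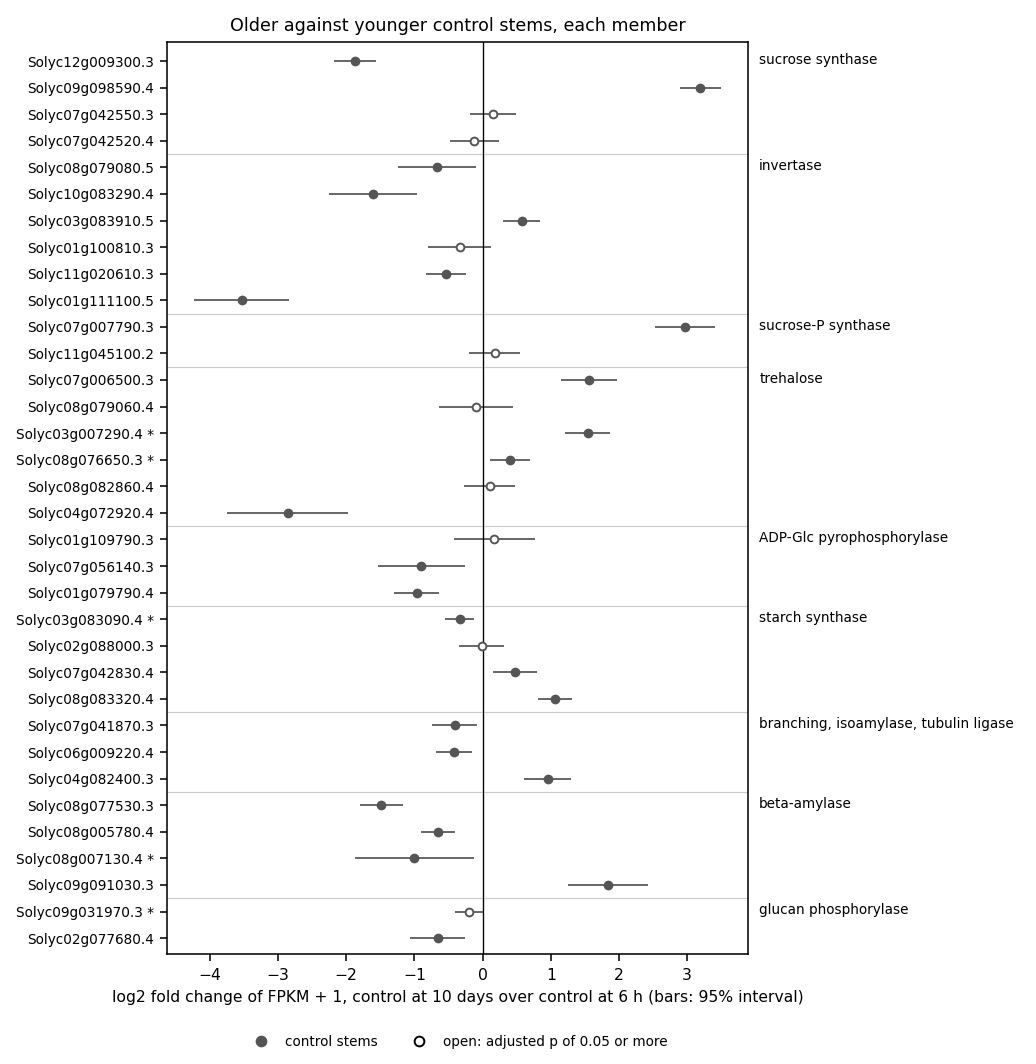
Log2 fold change of FPKM + 1 of control stems at 10 days over control stems at 6 h for each of the 34 members, with 95% intervals; filled symbols passed an adjusted p of 0.05, and an asterisk marks members fitted in the 10 day table. The values run from -3.53 for neutral invertase Solyc01g111100.5 to 3.20 for sucrose synthase Solyc09g098590.4.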

How the data were processed

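RNA-seq of tomato stems was deposited as 2 tables of FPKM values, 1 for each time, with all 12 libraries in both. Per the labels' protocols the authors aligned reads with HISAT to the genome and Bowtie2 to genes; no version, build, annotation or strand is stated in those protocols. The authors' legible Q values were under 0.05 for 2989 of 2989 genes (6 h) and 908 of 909 (10 days), so both tables hold selected genes. The deposited 6 h table had its tabs and decimal points swapped; these were put back, 92 of 5346 genes with merged values (no member) were left out, and a zero after the mark may be lost. This could move a member's value by at most 0.0138 on the log2 scale at 50 FPKM or more and by up to 0.303 below; in genes shared with the other table such losses were found in 60 of 4320 values, the lowest at 58.03 FPKM. The authors' deposited log2 ratios correlated with the restored values at 0.9998. Read counts could not be recovered (5.5% and 6.2% of low values were whole multiples), so depth is unknown.

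Tests ran on log2(FPKM + 1) and took genes reaching 1 FPKM in 3 or more libraries compared, with limma 3.58.1 in R 4.3.3 (empirical Bayes with trend, two-sided, Benjamini-Hochberg over all genes of the table; called at an adjusted p under 0.05). A fold change on this scale understates that of low genes. Plots used matplotlib in Python. Scripts were tested on simulated data. Alternatives changed the pseudocount (0.1, 0.5), the filter (none, 5 FPKM), the scaling and the libraries used. The members and lists were chosen with earlier results of these data known. Values were given library by library for members with an absolute log2 fold change of 0.8 or more at 6 h and a group mean of 5 FPKM, for those reaching a mean of 50 FPKM, and for those of the 10 day table. The labels call the replicates biological but name no plants or pools, so p-values measure the spread between these samples. Gene IDs of the files matched no entry of the reference table, and no sequence or coordinate is given.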

Additional observations from a re-analysis of the deposited data

Results flagged for a closer look

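The weight effect differed between 6 h and 10 days for 18 members, by a test of the difference itself in all 12 libraries; each value is the 10 day effect minus the 6 h effect on the log2 scale. Among the genes of sucrose use, the difference was positive for sucrose synthases Solyc07g042520.4 (1.09), Solyc07g042550.3 (1.09) and Solyc09g098590.4 (1.06), neutral invertase Solyc11g020610.3 (0.49) and sucrose-phosphate synthase Solyc11g045100.2 (0.79). It was negative for beta-fructofuranosidases Solyc08g079080.5 (-2.43) and Solyc10g083290.4 (-1.76). Of the trehalose genes, phosphatases Solyc04g072920.4 (1.45) and Solyc03g007290.4 (0.80) and trehalase Solyc08g082860.4 (0.68) were positive and trehalose-phosphate synthase 11, Solyc07g006500.3 (-1.96), was negative. Among the starch genes, starch synthases Solyc08g083320.4 (0.94) and Solyc03g083090.4 (0.75), glucan phosphorylases Solyc02g077680.4 (0.68) and Solyc09g031970.3 (0.61), branching enzyme Solyc04g082400.3 (0.53) and isoamylase 3, Solyc06g009220.4 (0.59), were positive, and beta-amylase Solyc08g077530.3 (-0.70) was negative. Members were listed for differing at one of the times or at both, which enlarges the effect at each time of listing. The shares of members that passed were near those of all genes.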

How the results depend on the processing

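Of 2327 recomputed values of single members, 2159 kept their direction and their side of the threshold, whatever their change in size. Of the others, 98 lost their call, 19 gained one, and 50 that were uncalled in both fits changed sign. A called value reversed in 1 case: the age difference of trehalose-phosphate synthase Solyc08g076650.3, -0.14 with library totals made equal. Among counts of members, with a filter of 5 FPKM 1 member and not 2 was lower at 10 days, since fewer genes were tested. With 1 library left out at a time, the age comparison in the 10 day table called 4 to 6 members, 2 to 4 of them lower, and the difference of weight effects in that table called 1 to 2 lower; the cause was not tested. At 6 h 25 to 28 members were called. In the 6 h table the age comparison then called 16 to 20 members, 7 to 8 higher and 9 to 12 lower, and the difference of effects called 11 to 16. Over all alternatives, age calls there were lost most often for Solyc08g079080.5 (9 of 13) and the tubulin ligase Solyc07g041870.3 (9 of 14). Scaling moved the median of all genes: at 10 days (10 day table) from 0.35 to 0.62 with library totals made equal, when 67% of genes were called, and to 0.15 by median ratios, when the tubulin ligase and Solyc08g076650.3 lost their calls and 4 members were higher; for age in the 10 day table from 0.16 to -0.35 with totals made equal, and in the 6 h table from -0.18 to -0.02 by median ratios; for the 6 h effect in the 10 day table from 0.02 to 0.24; and for the difference of effects from 0.05 to 0.16. The call for a difference of effects was lost in 14 of 21 alternatives for Solyc04g072920.4, 9 for Solyc04g082400.3, 4 for Solyc02g077680.4 and 3 for Solyc08g077530.3. Without control replicate 1 and weighted replicate 3 of the 10 day stems, an alternative added after seeing the data, 8 members were called at 10 days, 0 of 27 in the 6 h table, and 16 for the difference of effects; the difference of effects then passed for Solyc07g056140.3 (0.91, adjusted p = 0.00836) and Solyc01g109790.3 (0.75, adjusted p = 0.012) and no longer for Solyc04g082400.3 (adjusted p = 0.0505). The fit of that difference over the 10 day table was also added after seeing the data. Leaving out control replicate 1 and weighted replicate 3 keeps only weighted replicates 1 and 2 at 10 days, which lay almost together. The calls gained that way rest on a weighted group with little spread, and no conclusion is drawn from them. Same-numbered libraries of the 2 groups at 6 h deviated against each other (correlations of -0.37, -0.29 and -0.04) and at 10 days not together (-0.16, 0.32 and 0.17), so the numbers do not pair the samples; with a replicate block 27 members were called at 6 h (Solyc02g077680.4 and Solyc08g005780.4 lost their calls, adjusted p = 0.0587 and 0.0567), 8 at 10 days, 0 and 2 across tables, 18 and 5 for age (Solyc08g076650.3 among those lost, adjusted p = 0.0581), and 14 and 4 for the difference of effects.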
